A study of Mus musculus with 9 samples.

Results

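The abundance of 9 long non-coding transcripts was examined in mouse macrophages that differed in the form of the RNA-binding protein tristetraprolin (TTP) they expressed. The transcripts were chosen by gene symbol. They comprised the nuclear RNAs Malat1 and Neat1 and the small nucleolar RNA (snoRNA) host genes Gas5, Snhg1, Snhg3, Snhg5, Snhg6, Snhg8 and Snhg12. Of the 9 symbols, 8 were found among 25494 genes, and all 8 were listed in each of the 3 comparisons. Snhg8 was not listed under its symbol or identifier, and only the snoRNA inside it, Snora24, could be followed.

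The cells were bone marrow-derived macrophages of mice lacking TTP (gene Zfp36), immortalized with the oncogenes MYC and mutant RAS, and sorted as positive for the macrophage surface proteins CD11b and F4/80. All 3 groups shared this TTP-deficient background and differed in a doxycycline-inducible vector. It encoded GFP alone (GFP), GFP fused to TTP (TTP), or GFP fused to TTP with alanine in place of the serines phosphorylated by the stress-activated kinase MK2 (TTP-AA). Every culture received doxycycline for 6 h and LPS, a bacterial cell wall component that activates macrophages, for 1 h, each at 1 µg/ml. Each group had 3 biological replicates, 9 libraries in all, of total RNA depleted of ribosomal RNA, so transcripts without a poly(A) tail were not selected against. The number of separately transduced lines behind each group is not given in the labels, so a difference between lines and an effect of the transgene cannot be told apart.

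A snoRNA host gene carries snoRNAs in its introns. After splicing, the introns are trimmed to the snoRNAs, which guide the modification of ribosomal RNA, while the joined exons form a transcript with no long open reading frame. Many such transcripts are nonetheless bound by ribosomes and removed by nonsense-mediated decay, and many begin, like ribosomal protein mRNAs, with a stretch of pyrimidines at the cap (a 5′ terminal oligopyrimidine tract, or TOP), which ties their translation to growth signals. Malat1 is a nuclear transcript of speckles, the bodies rich in splicing factors, and Neat1 is the scaffold of paraspeckles. The 3′ ends of Malat1 and of the long form of Neat1 are cut by RNase P and carry no canonical poly(A) tail. TTP binds the AU-rich sequence UAUUUAU and recruits enzymes that shorten poly(A) tails, and it is best known for destabilizing inflammatory mRNAs.

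The sequences around the transcription starts are shown because many host genes share the pyrimidine tract and the members differ in it. Each line gives 30 bases before and 30 bases from the first annotated base, 5′ to 3′, from RefSeq on GRCm38.p6. Capitals mark a run of at least 5 C or T letters that opens with C within 10 bases of the annotated start, searched on the transcribed strand alone. Each run is counted from its first C, so T letters directly before that C stay in lower case.
Gas5 (chr1:161035136-161035195, plus strand): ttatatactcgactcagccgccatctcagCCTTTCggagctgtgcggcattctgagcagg
Snhg12 (chr4:132308648-132308707, plus strand): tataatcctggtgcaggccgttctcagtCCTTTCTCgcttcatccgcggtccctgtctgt
Snhg8 (chr3:123508307-123508366, minus strand): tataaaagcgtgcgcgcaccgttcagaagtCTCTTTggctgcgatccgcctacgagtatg
Snhg3 (chr4:132353657-132353716, minus strand): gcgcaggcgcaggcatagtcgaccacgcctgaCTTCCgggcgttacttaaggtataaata
Snhg5 (chr9:88522868-88522927, minus strand): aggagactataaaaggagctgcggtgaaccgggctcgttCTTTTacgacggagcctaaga
Snhg1 (chr19:8723457-8723516, plus strand): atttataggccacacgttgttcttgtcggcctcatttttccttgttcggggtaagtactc
Malat1 (chr19:5802643-5802702, minus strand): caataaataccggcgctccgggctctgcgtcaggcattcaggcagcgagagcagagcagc
The 7 members with an entry had 8 entries in all, of which 5 held such a run, against 29.7% of the 32851 entries of all genes. Counted from its first C, the run was 8 bases long in Snhg12 and began 2 bases before the annotated start. It was 6 bases long in Snhg8, where it began at the start itself, and in Gas5, where it began 1 base before the start. Gas5 has another, upstream entry with no run. In Snhg3 and Snhg5 the run was 5 bases and began at bases 3 and 10 of the transcript. T letters lie directly before the counted run in Snhg12, Snhg8 and Snhg5, where the full stretch of C or T is longer. Snhg1 and Malat1 held none by this rule, and Neat1 and Snhg6 had no entry. Snhg1 does hold a run of at least 5 C or T letters within 10 bases of its annotated start. That run opens with T, and fewer than 5 of its letters remain from its first C, so it was not counted.

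The motif TATTTAT, the DNA letters of the TTP site, was searched on the sense strand of the annotated transcripts (GENCODE M21). Among the longest transcripts of the 9 members it occurred once, in Malat1, at base 6935 of 6983, close to the 3′ end, shown here in capitals.
Malat1 site (chr19:5795721-5795749, minus strand): acacctcctacTATTTATtgaatactttg
Neat1, with 20771 bases, held no TATTTAT and 21 copies of the shorter ATTTA, and Malat1 held 12. Of 25 annotated Gas5 transcripts and 18 of Snhg1, none held TATTTAT. Of 11940 tested genes, 35.5% held it in their longest transcript, whose median length was 3245 bases. Per kb of the longest transcript, ATTTA occurred at 2.35 in Gas5, 2.20 in Snhg1, 1.72 in Malat1, 1.23 in Snhg6, 1.01 in Neat1 and 0.65 in Snhg12. Snhg3, Snhg5 and Snhg8 held none, and the median over the tested genes was 0.871 per kb. The longest transcripts of Gas5 and Snhg1 without a retained intron held 0 and 1 copies.

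All positions are on GRCm38. Malat1 (chr19:5795690-5802672, minus strand) and Neat1 (chr19:5824708-5845478, minus strand) lie 22035 bases apart, and Snhg1 (chr19:8723475-8726443, plus strand) is on the same chromosome. Snhg12 (chr4:132308623-132311024, plus strand) and Snhg3 (chr4:132348014-132353686, minus strand) are 36989 bases apart on opposite strands. Gas5 (chr1:161034422-161038539, plus strand) and Snhg6 (chr1:9941959-9944118, minus strand) share chromosome 1, Snhg5 (chr9:88521050-88522929, minus strand) is on chromosome 9 and Snhg8 (chr3:123507552-123508404, minus strand) on chromosome 3. The identifier given to Snhg1 in the files is not in GENCODE M21, so its position and length were matched by symbol.

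The library values used here are means fitted by the authors' model and not measured counts, so same-numbered libraries of different groups keep a fixed ratio for each gene. Their spread within a group is that of the replicate number, which coincides with the library date, and the error of a difference is the standard error (SE) deposited with it. Whether groups overlap therefore compares the group term with the date term of the fit and is no measure of replicate scatter. The sums of fitted values per library ran from 21482954 (TTP replicate 1) to 102613526 (TTP-AA replicate 3). The 8 macrophage markers summed to fitted levels of 497706 or more in every library, whereas summed levels of fibroblast, T cell, B cell and epithelial markers were at most 6.15. Single markers moved more than that sum, which is mostly Lyz2. Emr1, which encodes F4/80, was at -0.75, 0.68 and 1.43 in TTP vs GFP, TTP-AA vs GFP and TTP-AA vs TTP, all called, and Fcgr1 at -1.20, -0.39 and 0.82, of which the first and last were called. Of the 8, 2 fell in TTP vs GFP, 1 rose in TTP-AA vs GFP, and 3 rose and 1 fell in TTP-AA vs TTP, and their part in the results below was not tested. Neutrophil markers summed to 113 to 181 in GFP, 115 to 183 in TTP and 192 to 308 in TTP-AA, nearly all of it S100a8, with Elane and Mpo at 0.51 or less. Endothelial markers summed to 27.4 to 34.5, 25.4 to 32.3 and 40.3 to 52.2 in the same groups, and the part of either in the TTP-AA results was not tested. In such bulk samples, fewer cells of a type and less RNA per cell cannot be told apart. Zfp36, the deleted gene that the vectors restore, did not separate TTP from GFP. Its log2 change was 0.04 ± 0.17 (SE) in TTP relative to GFP (DESeq2 adjusted p = 0.930) and 0.69 ± 0.17 in TTP-AA relative to GFP (adjusted p = 0.000682). In TTP-AA relative to TTP the change was 0.65 ± 0.17 (DESeq2 adjusted p = 0.000902). Whether these reads come from the deleted gene or from the transgene was not tested, so Zfp36 does not check the label TTP, and the group names below are those of the labels.

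Malat1 was the most abundant of the 8 transcripts by count. After scaling to a common library size, its fitted level had a mean of 48213 normalised read counts, rank 46 among 25494 genes, and it took 0.104% to 0.178% of a library's signal. The others ranged from 7696 for Gas5 (rank 911) to 454 for Snhg12 (rank 8284). Per kilobase of annotated exon, which allows genes to be compared with each other, the order was Malat1 (6904), Snhg6 (2816), Gas5 (2047), Snhg5 (877), Snhg1 (830), Snhg3 (517), Snhg12 (189) and Neat1 (121). On that scale Malat1 stayed above all others over the 9 libraries, with a range of 5328 to 8931 per kb. Snhg6 (1957 to 3454) overlapped with Gas5 (1504 to 2437). Snhg5 (542 to 1265), Snhg1 (584 to 1070) and Snhg3 (310 to 665) formed an overlapping run of their own, as did Snhg12 (114 to 287) and Neat1 (71.4 to 186). Exons of retained-intron transcripts count towards these lengths and they change the order. Per kilobase of the longest transcript without a retained intron, Gas5 came first (11573, range 8506 to 13780), followed by Malat1 (6904), Snhg6 (3954), Snhg1 (3477), Snhg5 (1511), Snhg3 (877), Snhg12 (295) and Neat1 (121). Both scales divide Neat1 by 20771 bases, the length of the longest of its 4 annotated transcripts. The share of its reads from shorter forms was not tested.

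**Figure D1:**
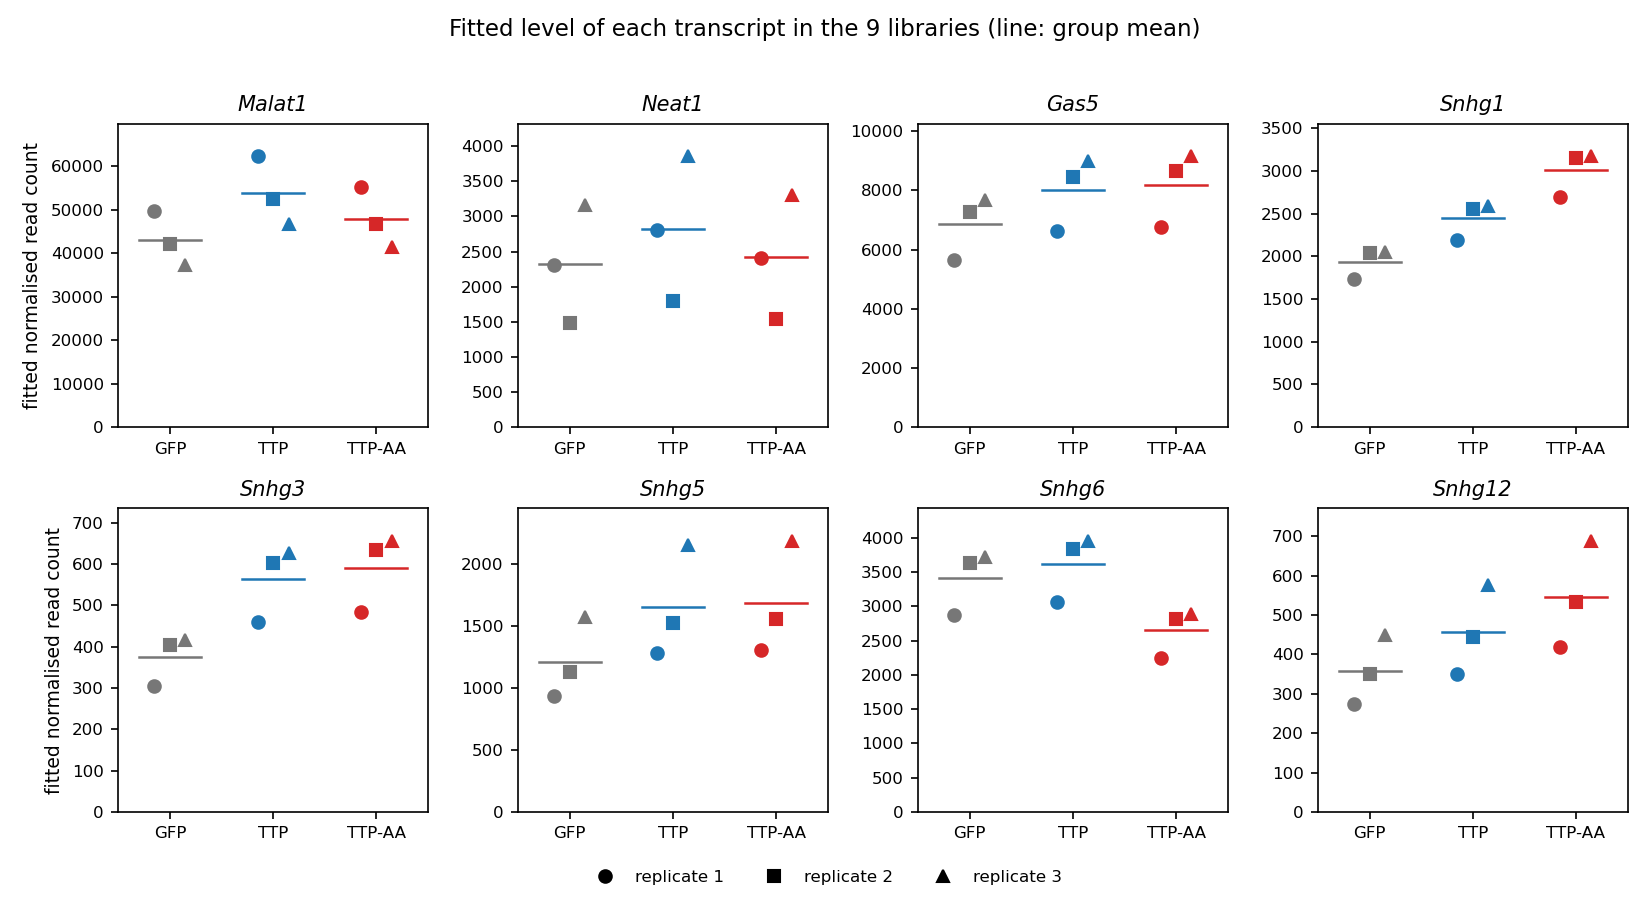
Fitted normalised read count (linear axis from 0) of each of the 8 transcripts in the 9 libraries, one panel per gene, with circles, squares and triangles for replicates 1, 2 and 3 and a line at each group's mean. Snhg1 steps up from GFP (mean 1939) to TTP (2449) and TTP-AA (3007) with no overlap, Snhg6 is lowest in TTP-AA (2652 against 3409 in GFP), and the same replicate pattern recurs in each group because the values are fitted.

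Taken over all 3 groups at once, 5 of the 6 tested snoRNA hosts differed, while Gas5 and the nuclear RNAs did not pass the test. A joint Wald test computed from the deposited changes and standard errors called 5 of the 8 transcripts, against 33.1% of 11977 genes. They were Snhg1 (adjusted p = 9.54e-08, rank 540), Snhg6 (2e-05), Snhg3 (0.000298), Snhg5 (0.00207) and Snhg12 (0.00808). Gas5 (0.0583), Malat1 (0.134) and Neat1 (0.183) did not pass. The adjustment was that of Benjamini and Hochberg over all genes tested.

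In the comparison of TTP with GFP, which sets the phosphorylatable form beside GFP alone, 3 host genes rose and none fell. Snhg3, Snhg5 and Snhg1 were higher by 1.51-, 1.37- and 1.27-fold in the libraries labelled TTP, and the estimates of the other 5 transcripts were also above 0 without passing. The 3 calls of 8 compare with 9.16% of all genes called, 4.08% higher and 5.08% lower. The median log2 change of the 8 was 0.34, beside 0.01 over all genes. When the Wald scores, whose central spread was 1.51, were divided by that spread, none of the 3 calls held.

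TTP-AA vs GFP, which does the same for the form that MK2 cannot inactivate, gave 4 rises and 1 fall. Snhg3 (1.58-fold), Snhg1 (1.55-fold), Snhg12 (1.53-fold) and Snhg5 (1.39-fold) rose, and Snhg6 fell to 0.778 of its GFP level. The 5 calls of 8 compare with 17.9% of all genes called, 9.11% higher and 8.77% lower. The median log2 change was 0.36, beside 0.00 (0.001) over all genes. The GFP libraries are shared with the former comparison, so the rises seen in both are not independent of each other. With scores divided by their central spread of 1.77, Snhg1 alone stayed called (adjusted p = 0.0363).

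TTP-AA vs TTP compares the mutant with the phosphorylatable form, and other differences between the lines cannot be told apart from the phosphorylation sites. It called 2 of the 8 transcripts, against 28.6% of all genes, 14% higher and 14.6% lower. Snhg1 was higher and Snhg6 lower in TTP-AA. The median log2 change of the 8 was 0.02, beside -0.01 over all genes, and the share called was no larger than that of genes in general. Divided by a central spread of 2.17, neither score passed.

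**Figure D2:**
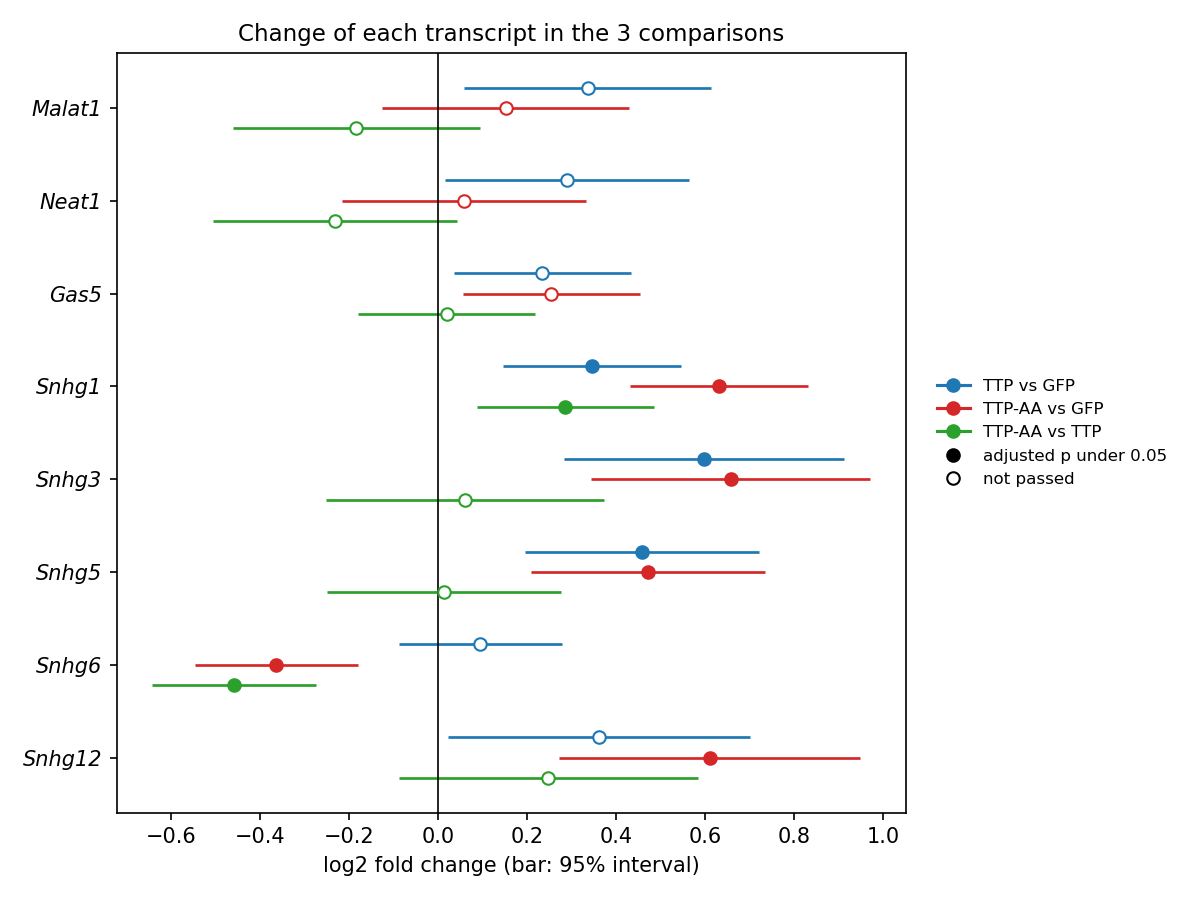
Log2 fold change of each transcript for TTP vs GFP, TTP-AA vs GFP and TTP-AA vs TTP, with the 95% interval from the deposited standard error as a bar and filled points where the adjusted p was under 0.05. Filled points sit right of 0 for Snhg1, Snhg3, Snhg5 and Snhg12, left of 0 for Snhg6, and Malat1, Neat1 and Gas5 have none.

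Snhg1, which hosts 8 annotated snoRNAs in GENCODE M21, was the one transcript called in all 3 comparisons. Its fitted levels were 1734, 2038 and 2046 in GFP replicates 1 to 3, 2194, 2559 and 2593 in TTP, and 2693, 3152 and 3176 in TTP-AA. The 3 groups did not overlap, which for fitted values says that the group term exceeded the date term, and TTP lay between GFP and TTP-AA. The log2 change was 0.35 ± 0.10 (SE) for TTP vs GFP (95% interval 0.15 to 0.55, DESeq2 adjusted p = 0.0129). It was 0.63 ± 0.10 in TTP-AA vs GFP (0.43 to 0.83, DESeq2 adjusted p = 4.46e-08) and 0.29 ± 0.10 between the forms (0.09 to 0.49, DESeq2 adjusted p = 0.0216). Genes of chromosome 19 as a whole were shifted in the same direction in that first comparison, with a median log2 change of 0.20 and 31.4% of 427 genes called. After subtracting each chromosome's median, Snhg1 was at 0.14 in TTP vs GFP (adjusted p = 0.514), no longer called, and at 0.53 in TTP-AA vs GFP (9.9e-06), where the chromosome's median was 0.10.

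Snhg3 showed a log2 change of 0.66 in TTP-AA vs GFP, not separable from the 0.63 of Snhg1 by their errors, and similar estimates with either form of TTP. Its fitted levels were 305, 403 and 415 in GFP, 460, 603 and 626 in TTP, and 483, 635 and 656 in TTP-AA. GFP lay below both other groups without overlap, and TTP and TTP-AA overlapped. Against GFP the log2 change was 0.60 ± 0.16 (SE) in TTP (DESeq2 adjusted p = 0.00446) and 0.66 ± 0.16 in TTP-AA (DESeq2 adjusted p = 0.000685). The difference between the forms was 0.06, with an interval of -0.25 to 0.37 (DESeq2 adjusted p = 0.824). Snhg3 shares 135 exonic bases with Rcc1, the gene of a chromatin-bound exchange factor for the GTPase Ran, on the same strand, so reads there cannot be assigned to either with certainty. On the opposite strand, 705 of its 986 exonic bases are shared with the lincRNA Gm17300, which was not tested, and without strand use in the counting those reads cannot be separated either. Rcc1 changed by 0.24 ± 0.11 in TTP vs GFP (DESeq2 adjusted p = 0.204) and 0.01 ± 0.11 in TTP-AA vs GFP (DESeq2 adjusted p = 0.955), neither of which passed.

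Snhg5, whose introns hold a pair of C/D box snoRNAs of the Snord50 family, followed Snhg3 at a smaller size. Fitted values stood at 937, 1125 and 1575 in GFP, 1282, 1528 and 2157 in TTP, and 1303, 1558 and 2188 in TTP-AA. All 3 groups overlapped, since replicate 3 was higher in each than replicates 1 and 2. The log2 change was 0.46 ± 0.13 (SE) for TTP vs GFP (DESeq2 adjusted p = 0.0119) and 0.47 ± 0.13 in TTP-AA vs GFP (DESeq2 adjusted p = 0.00502). The forms differed by 0.01, with an interval of -0.25 to 0.28.

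Snhg12, which holds Snora16a, Snora44, Snora61 and Snord99, was the least abundant of the 8 by count. The libraries gave fitted levels of 273, 350 and 451 in GFP, 350, 445 and 577 in TTP, and 418, 534 and 689 in TTP-AA. The group means rose in the order GFP, TTP, TTP-AA, but the ranges overlapped. TTP-AA vs GFP passed the test (log2 change 0.61 ± 0.17 SE, DESeq2 adjusted p = 0.00462). TTP vs GFP gave 0.36 ± 0.17 (DESeq2 adjusted p = 0.195) and TTP-AA vs TTP gave 0.25 ± 0.17 (interval -0.09 to 0.59, DESeq2 adjusted p = 0.293), so TTP was not separated from either group.

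Snhg6, the host of Snord87, moved in the opposite direction. Its fitted levels were 2879, 3633 and 3716 in GFP, 3062, 3836 and 3958 in TTP, and 2243, 2819 and 2894 in TTP-AA. All TTP-AA libraries were below the lowest TTP library, while the highest TTP-AA value was just above the lowest GFP value. The log2 change was -0.36 ± 0.09 (SE) in TTP-AA vs GFP (95% interval -0.55 to -0.18, DESeq2 adjusted p = 0.00154) and -0.46 ± 0.09 in TTP-AA vs TTP (-0.64 to -0.28, DESeq2 adjusted p = 1.6e-05). TTP vs GFP gave 0.10 ± 0.09 (DESeq2 adjusted p = 0.618). Snhg6 shares 127 exonic bases with Mcmdc2, a gene on the opposite strand with a mean of 10.4 counts, at 0.05 ± 0.22 in TTP-AA vs GFP (DESeq2 adjusted p = 0.910).

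Gas5, named for its accumulation in growth-arrested cells and a well-studied substrate of nonsense-mediated decay, was the most abundant host gene by count. In the libraries it stood at 5656, 7274 and 7669 in GFP, 6626, 8459 and 8996 in TTP, and 6762, 8661 and 9164 in TTP-AA. The groups overlapped. The log2 change was 0.23 ± 0.10 (SE) for TTP vs GFP (unadjusted p = 0.0208, DESeq2 adjusted p = 0.138) and 0.25 ± 0.10 in TTP-AA vs GFP (unadjusted p = 0.0120, DESeq2 adjusted p = 0.0618). The direction was that of Snhg1, Snhg3 and Snhg5, but neither value passed. The 95% intervals were 0.04 to 0.43 and 0.06 to 0.45. The first reached the estimate called for Snhg1 in TTP vs GFP, and the second ended below the estimates of those 3 genes in TTP-AA vs GFP. Their own intervals there began at 0.43 (Snhg1), 0.34 (Snhg3) and 0.21 (Snhg5), each within that of Gas5, and the differences were not tested. TTP and TTP-AA differed by 0.02 (interval -0.18 to 0.22).

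Malat1 did not pass in any comparison. Its fitted levels were 49629, 42076 and 37205 in GFP, 62367, 52496 and 46821 in TTP, and 55253, 46662 and 41404 in TTP-AA. Groups overlapped, and replicate 1 was the highest in each, whereas replicate 1 was the lowest for every host gene. The log2 change was 0.34 ± 0.14 (SE) for TTP vs GFP (unadjusted p = 0.0175, DESeq2 adjusted p = 0.123) and 0.15 ± 0.14 for TTP-AA vs GFP (adjusted p = 0.522). Between the forms it was -0.18 ± 0.14 (DESeq2 adjusted p = 0.354). After subtracting the median of chromosome 19, its change in TTP vs GFP was 0.13 (adjusted p = 0.702) and that in TTP-AA vs GFP 0.05.

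Neat1, the neighbour of Malat1, did not pass in any comparison either. Its fitted levels were 2304, 1484 and 3168 in GFP, 2804, 1792 and 3860 in TTP, and 2404, 1542 and 3303 in TTP-AA. Here replicate 2 was the lowest and replicate 3 the highest in each group, and the groups overlapped over most of their range. The log2 change was 0.29 ± 0.14 (SE) for TTP vs GFP (unadjusted p = 0.0382, DESeq2 adjusted p = 0.200) and 0.06 ± 0.14 for TTP-AA vs GFP (adjusted p = 0.838). Between the forms it was -0.23 ± 0.14 (DESeq2 adjusted p = 0.217). Both nuclear RNAs lie on chromosome 19, whose median was 0.20 in TTP vs GFP and 0.10 in TTP-AA vs GFP. Relative to it, the change of Neat1 was 0.09 in TTP vs GFP and -0.05 in TTP-AA vs GFP.

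The fitted levels also varied with the replicate number, and for 5 of the 8 transcripts by more than with the group. The span between the highest and lowest replicate number was 1.10 (log2) for Neat1, 3.93 times the span of 0.28 between its groups. For Snhg5 and Snhg12 it was 0.75 and 0.72, beside spans of 0.47 and 0.61 between groups. Snhg1 (0.24 beside 0.63), Snhg3 (0.44 beside 0.66) and Snhg6 (0.37 beside 0.45) were the 3 transcripts whose groups spanned more than their replicate numbers. For the 13159 genes of mean 10 or above, the medians were 0.32 between replicate numbers and 0.25 between groups.

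**Figure D3:**
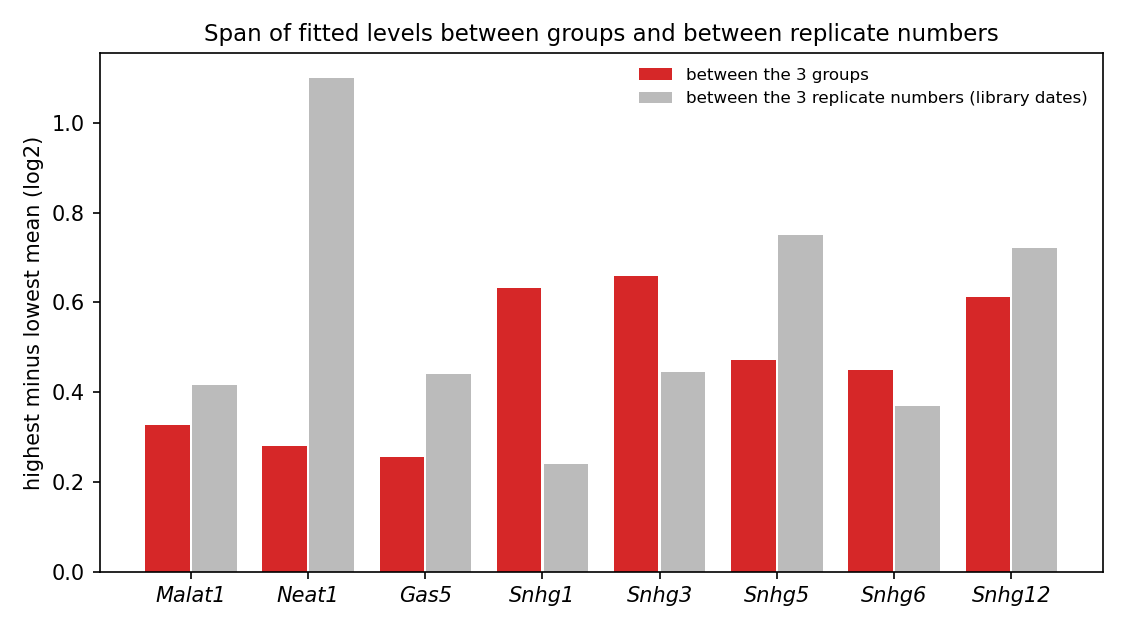
For each of the 8 transcripts, the highest minus the lowest mean log2 level between the 3 groups (red bars) and between the 3 replicate numbers, which stand for library dates (grey bars), on an axis from 0. The grey bar is the taller for Malat1, Neat1, Gas5, Snhg5 and Snhg12, most so for Neat1 (1.10 against 0.28), and the red bar for Snhg1, Snhg3 and Snhg6.

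The snoRNAs inside the hosts were next compared with them. The annotation places 29 snoRNA entries inside the 9 members, of which 5 were in the table and were tested. Spliced and trimmed snoRNAs are short and highly structured, and how much of them the libraries retained was not tested. Snora73a and Snora73b, both of 205 bases, lie in Snhg3 and are required for ribosomal RNA maturation. In TTP-AA vs GFP, where Snhg3 was at 0.66, Snora73a was at -0.02 ± 0.16 (SE, DESeq2 adjusted p = 0.962) and Snora73b at 0.06 ± 0.14 (DESeq2 adjusted p = 0.841). In TTP vs GFP they were at 0.28 ± 0.16 and 0.31 ± 0.14 (DESeq2 adjusted p = 0.298 and 0.145), beside 0.60 for the host. The snoRNAs thus did not pass where Snhg3 did, and the difference between host and snoRNA was not itself tested. Rcc1, which overlaps Snhg3 on the same strand, is itself among the protein-coding snoRNA hosts described below. It was at 0.24 ± 0.11 in TTP vs GFP and 0.01 ± 0.11 in TTP-AA vs GFP. Whether Snora73a and Snora73b also lie inside Rcc1 was not tested.

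Snord87 and Snora16a completed the pairs. Snord87, a C/D box snoRNA of 87 bases with a mean level of 106, was at 0.27 ± 0.22 in TTP-AA vs GFP (DESeq2 adjusted p = 0.453), where its host Snhg6 was at -0.36. Snora16a, in Snhg12, was at 0.32 ± 0.16 (DESeq2 adjusted p = 0.166), beside 0.61 for the host. Neither passed in any comparison. Snora24, an H/ACA box snoRNA of 130 bases inside Snhg8, was the single tested snoRNA that did. It had group means of 922 in GFP, 697 in TTP and 1050 in TTP-AA, and its level in TTP-AA exceeded that in TTP by 0.58 ± 0.17 (DESeq2 adjusted p = 0.005), while -0.39 ± 0.17 in TTP vs GFP did not pass (DESeq2 adjusted p = 0.148). On chromosome 3 the median change in TTP vs GFP was -0.20. Annotated exons, retained introns included, cover all of Snora24 in Snhg8 and of Snora16a in Snhg12, and 159 of the 205 bases of Snora73a in Snhg3, and host and snoRNA reads cannot be told apart there. Snora73b and Snord87 share no base with an annotated exon of their hosts.

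**Figure D4:**
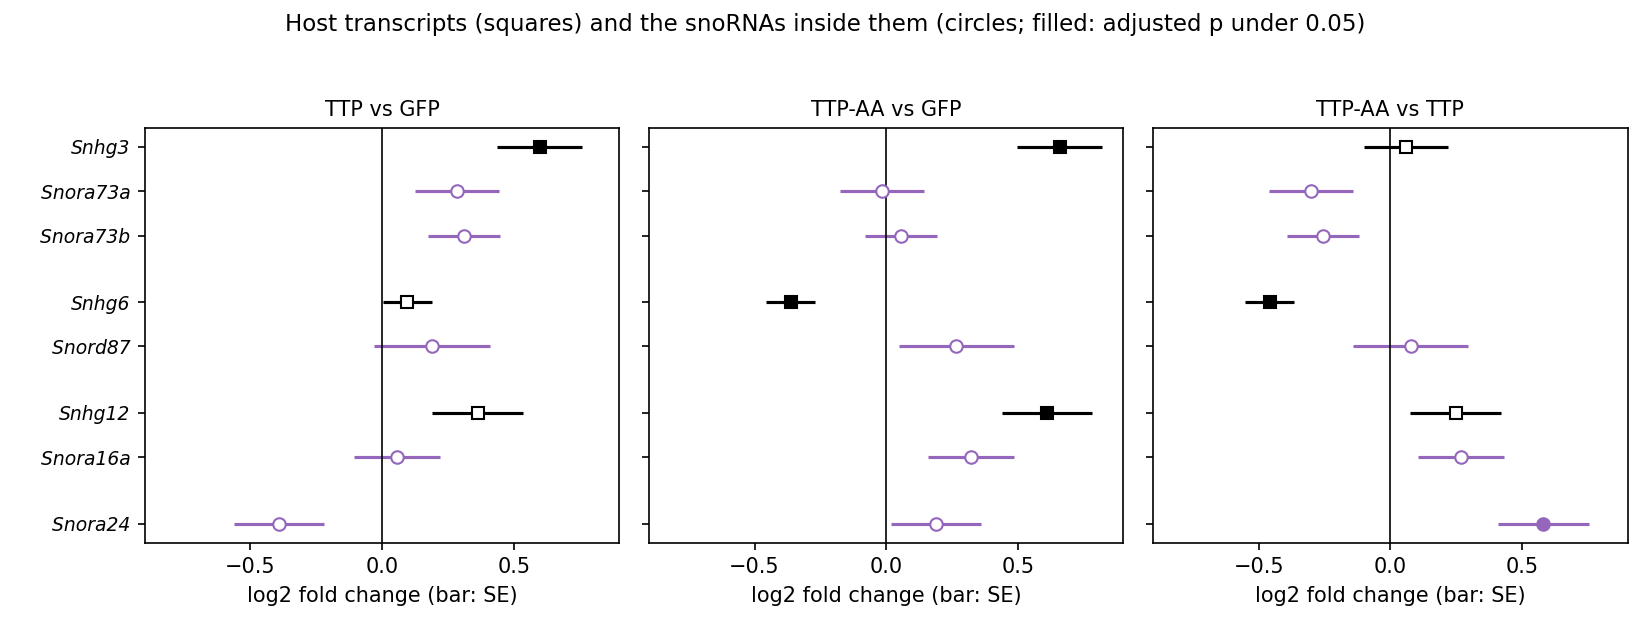
Log2 fold change with its SE for host transcripts (black squares) and the snoRNAs inside them (purple circles) in each comparison, filled where the adjusted p was under 0.05. Snhg3 is filled in both comparisons with GFP while Snora73a and Snora73b are open in each, Snhg6 lies left of 0 in TTP-AA vs GFP while Snord87 lies right of it, and Snora24 is the single filled circle.

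Genes beside the members give the local background. Slc3a2, the heavy chain of an amino acid transporter on the opposite strand next to Snhg1, rose with it in TTP-AA vs GFP (log2 change 0.33 ± 0.10 SE, DESeq2 adjusted p = 0.007) and was at 0.18 ± 0.10 in TTP vs GFP (DESeq2 adjusted p = 0.290). Zbtb37, a zinc finger gene that overlaps Gas5 on the opposite strand, did not pass in any comparison, with values of -0.25 to 0.17. Trnau1ap, which is needed for selenocysteine insertion and lies on the opposite strand beside Snhg12, gave 0.15 ± 0.10 in TTP-AA vs GFP (DESeq2 adjusted p = 0.361), beside 0.61 for Snhg12. Use of strand in the counting is not stated, so antisense reads in the 453 bases that Malat1 shares with Gm37376 cannot be separated. That gene had a mean of 24.2 counts and did not pass.

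Other non-coding snoRNA hosts pointed the same way as the members against GFP, but few passed. Of 65 such genes in the annotation, 19 were tested in TTP vs GFP. None was called, beside 9.16% of all genes. Estimates were above 0 for 17, and their median log2 change was 0.14, beside 0.01 for all genes. In TTP-AA vs GFP, 3 of 20 rose and 1 fell (20% called, beside 17.9%), with a median of 0.25. The largest rises were Rab26os (0.46 ± 0.16, DESeq2 adjusted p = 0.033) and 1110038B12Rik (0.37 ± 0.10, adjusted p = 0.004), and the fall was 2410006H16Rik (-0.26 ± 0.09, adjusted p = 0.032). In TTP-AA vs TTP, 1110038B12Rik rose by 0.30 ± 0.10, and 2410006H16Rik (-0.25 ± 0.09) and Cct6a (-0.23 ± 0.09) fell (15% called, beside 28.6% of all genes). Cct6a encodes a chaperonin subunit and is counted here because the annotation types its locus as a processed transcript.

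Protein-coding snoRNA hosts, which carry snoRNAs in the introns of genes mostly for ribosome and translation proteins, had medians close to 0 against GFP. Of 63 tested, 3 rose and none fell in TTP vs GFP (4.76% called, beside 9.16% of all genes), 1 rose and 4 fell in TTP-AA vs GFP (7.94%, beside 17.9%), and 2 rose and 11 fell in TTP-AA vs TTP (20.6%, beside 28.6%). Their medians were 0.03, -0.03 and -0.09. Eif3a, a subunit of the initiation factor that binds the small ribosomal subunit, had the largest rise in TTP vs GFP (0.42 ± 0.09) and the largest falls in TTP-AA vs GFP (-0.50 ± 0.09) and TTP-AA vs TTP (-0.92 ± 0.09). Wdr43 (0.29 ± 0.09) also rose in TTP vs GFP, and Rabggtb (-0.40 ± 0.10) fell in TTP-AA vs GFP, where the rise was 2410002F23Rik (0.37 ± 0.10). Ncl, which encodes nucleolin, fell by 0.72 in TTP-AA vs TTP, where Tmem245 (0.39 ± 0.11) and Gsk3b (0.33 ± 0.11) rose.

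Genes of the proteins that package snoRNAs were called more often in TTP vs GFP than in TTP-AA vs GFP by count, a difference that was not tested. Of 13 snoRNP core and assembly genes, 4 rose in TTP vs GFP and none fell (30.8% called, beside 9.16% of all genes, median 0.19). The largest were Nop10 (0.41 ± 0.07) of the H/ACA particle and Ruvbl2 (0.32 ± 0.09), an ATPase of snoRNP assembly. In TTP-AA vs GFP, 2 rose, Nufip1 (0.30 ± 0.10) and Ruvbl2 (0.29 ± 0.09), which is 15.4%, beside 17.9%, and the median was -0.02. In TTP-AA vs TTP, 6 of 13 fell (46.2%, beside 28.6%), the largest being Fbl (-0.46 ± 0.13), the methyltransferase fibrillarin, and Dkc1 (-0.26 ± 0.08), the pseudouridine synthase. The median there was -0.21, beside 0.04 for the 6 host members.

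Nonsense-mediated decay factors were also tested, since many spliced host transcripts are substrates of that pathway. None of 18 was called in TTP vs GFP, beside 9.16% of all genes. In TTP-AA vs GFP 3 fell and none rose (16.7%, beside 17.9%), the largest being Rbm8a (-0.55 ± 0.10) and Magohb (-0.39 ± 0.12), both of the exon junction complex. In TTP-AA vs TTP, 6 fell, led by Rbm8a (-0.41 ± 0.10) and Magohb (-0.35 ± 0.12), and 2 rose, Smg1 (0.26 ± 0.10) and Smg5 (0.23 ± 0.09). This made 44.4% called, beside 28.6% of all genes.

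Paraspeckle proteins, the partners of Neat1, moved in both directions. Of 13, Tardbp rose (0.33 ± 0.11) and Cpsf6 fell (-0.29 ± 0.09) in TTP vs GFP (15.4% called, beside 9.16% of all genes). In TTP-AA vs GFP, Cpsf7 rose (0.45 ± 0.11) and Pspc1 (-0.38 ± 0.09) and Cpsf6 (-0.27 ± 0.09) fell (23.1%, beside 17.9%), and in TTP-AA vs TTP the largest fall was Pspc1 (-0.50 ± 0.09) and none rose. Of 12 tested components of RNase P and RNase Z, 3 rose and 1 fell in TTP vs GFP (33.3%, beside 9.16% of all genes), none was called in TTP-AA vs GFP (beside 17.9%), and 1 rose and 3 fell in TTP-AA vs TTP (33.3%, beside 28.6%). Pop1 (0.38 ± 0.11) and Elac2 (0.34 ± 0.10) were the larger rises in TTP vs GFP, and Elac2 (-0.51 ± 0.10) and Pop1 (-0.43 ± 0.11) the larger falls in TTP-AA vs TTP. The RNA subunit Rpph1 went the other way, at -0.35 ± 0.11 and 0.38 ± 0.11.

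Among 22 to 24 other non-coding RNAs of a fixed list, calls were no more frequent than among all genes. In TTP vs GFP 2 fell and none rose (9.09%), Terc, the telomerase RNA (-0.54 ± 0.12), and Rpph1. In TTP-AA vs GFP 2 rose, Mir17hg (0.68 ± 0.22), the host of the miR-17 cluster, and Ptgs2os2 (0.53 ± 0.17), which lies by the gene of an inducible cyclooxygenase, and Terc fell (-0.37 ± 0.12). In TTP-AA vs TTP 4 rose and 2 fell (25%). The rises were led by Ptgs2os2 (0.50 ± 0.17) and Rpph1, and the larger fall was Gm14005 (-0.44 ± 0.16).

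The genes most like Malat1, Neat1 and Gas5 were sought by the distance between pairs of log2 changes against GFP, among the 8105 genes of mean 500 or above. Closest to Malat1 were Pnkd (distance 0.00671), Ppp1r14b (0.00854) and Terf2 (0.00968), and 145 genes lay within 0.1. Closest to Neat1 were Wdr55 (0.0017), Rpain (0.00768) and Mcm6 (0.0132), with 321 genes within 0.1. Closest to Gas5 were Vps51 (0.00656), Dcbld2 (0.00665) and Nenf (0.0154), with 230 genes within 0.1. Distances between transcripts so near to each other are smaller than the standard errors of 0.10 to 0.14 of the changes themselves, so the order of the neighbours is a description only.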

How the data were processed

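Total RNA depleted of ribosomal RNA was sequenced in 9 libraries, 3 per group, grouped and numbered as the sample titles give them. The authors mapped reads to GRCm38 with TopHat, allowing up to 2 placements per read, and ran DESeq2 on a model of condition and library date, with a Wald test and the Cook's distance filter off. The submitters' processing notes list HTSeq, Trim Galore, TopHat2 2.0.12 and DESeq2 1.6.3. Strand use in the counting is not given in the sources used here.

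The deposited signal table, named as normalized counts, held no 0 in 25494 genes, and its log2 values kept 4 nonzero singular values after centring, against 8 for unconstrained libraries. Log2 ratios within a replicate number differed from the deposited fold change by 1 constant per pair (largest deviation 1.48e-14). The table therefore holds fitted means. They were scaled by median-of-ratios size factors over genes of mean 10 or above, with no test, and depth and counting error per library are unknown.

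Tests were those of the authors' model, taken as deposited (log2 changes with their errors, Wald scores, p-values and adjusted p-values), because fitted means carry no replicate scatter, and the threshold was a two-sided adjusted p of 0.05. After 3 repeated identifiers per table, TTP vs GFP listed 11977 genes and the other comparisons 13205 each. The joint test is a Wald chi-square on both changes against GFP, with the covariance from the 3 standard errors. Intervals are 95% normal intervals. Scripts were tested on simulated data.

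The members and gene lists, and the rule for the genes named (members, the 2 largest rises and falls called per list, neighbours, nearest genes and Zfp36), were chosen with earlier results of these data known. Positions, lengths and snoRNA hosts came from GENCODE M21, whose annotation is later than the authors', and starts from RefSeq on GRCm38.p6. Computation used scipy 1.17.1, pandas 2.3.3 and numpy 2.4.6 under Python 3.11.15. The alternatives were scaling of Wald scores, centring by chromosome or over all genes, removal of a GC and length trend, a mean of at least 50, and scaling of levels by library sums. The result of 1 gene of the paraspeckle protein list is not reported here.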

Additional observations from a re-analysis of the deposited data

Results flagged for a closer look

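For 2 transcripts the change against GFP differed between the forms of TTP, as tested directly in TTP-AA vs TTP. Snhg1 in TTP-AA exceeded its level in TTP by 0.29 on the log2 scale (DESeq2 adjusted p = 0.0216), having risen in both against GFP. Snhg6 had a difference of -0.46 (DESeq2 adjusted p = 1.6e-05), with a fall in TTP-AA and no call in TTP against GFP. Among all genes 28.6% were called in that comparison, and with Wald scores divided by their central spread neither transcript passed (adjusted p = 0.856 and 0.405).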

How the results depend on the processing

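Dividing Wald scores by their central spread lowered the calls over all genes to 247 in TTP vs GFP (from 1097), 197 in TTP-AA vs GFP (from 2361) and 266 in TTP-AA vs TTP (from 3780), and left 1 of the 10 calls made on the 8 transcripts, Snhg1 in TTP-AA vs GFP. Centring on chromosome medians removed 1 call, Snhg1 in TTP vs GFP, and turned Neat1 in TTP-AA vs GFP to -0.045. Removing the GC and length trend turned the uncalled TTP-AA vs TTP values of Gas5, Snhg3 and Snhg5 to -0.0076, -0.0061 and -0.031, and brought Gas5 to an adjusted p of 0.0459 in the joint test. No call on the 8 transcripts changed with a mean of at least 50, with centring on the median of all genes or, for levels, with scaling by library sums, which shifted the median by at most 0.01 (log2). The joint test gave 3415 to 4024 called genes under the 4 alternatives run, against 3965, and was not run on divided scores, since the spread differs between comparisons. No paired analysis was possible because the library table holds fitted means without replicate scatter, and the deposited tests already carry library date, which coincides with the replicate number, so a fit without that block could not be made either. For the same reason, leaving out single replicates, a limma fit and other pseudocounts were not run, and no single library's influence can be given.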
